A study of Mus musculus with 72 samples.

Results

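The antiviral effector genes that interferon switches on were followed across 2 corepressor knockdowns of a mouse macrophage-like cell line. The 43 members were taken as a list of named genes by symbol, from 25124 genes in the RNA table, and the ATAC peaks of the members were those whose nearest gene, as annotated, was a member and whose distance from its start site was at most 50 kb, which gave 102 of 51984 peaks. A peak was assigned to 39 of the 43 genes, and none to Parp9, Oasl2, Ifi44l or Isg15. The cells were RAW264.7, a macrophage-like line derived from a BALB/c mouse, cultured without a stated stimulus for these assays. They had been infected with lentivirus that expressed a short hairpin RNA against GFP (shGFP, the control), NCOR (shNCOR) or SMRT (shSMRT), so that all 3 groups carried a lentivirus and a hairpin in 1 line. The number of infections behind each group is not given. For ATAC-seq the titles name the hairpins while the protocol speaks of wild-type cells in triplicate wells, and the titles were used. Each group had 3 RNA-seq and 3 ATAC-seq libraries, and the other 54 of the 72 samples of the series were not analysed here. Whether libraries of a group stem from independent cultures is not stated, and the p-values cover only the spread seen among them, which could be technical.

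Type I interferons bind the receptor subunits IFNAR1 and IFNAR2, the kinases JAK1 and TYK2 phosphorylate STAT2, and STAT2 acts with IRF9 in a complex that binds the interferon-stimulated response element (ISRE) in the promoters of target genes. The proteins made from these genes bind or cut viral RNA, hold virions at the membrane, modify other proteins or sense foreign nucleic acid. Macrophages are known to keep a low tonic expression of them without infection. NCOR and SMRT are corepressors that carry the histone deacetylase HDAC3 to transcription factors.

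The RNA libraries held 39.2 to 49.1 M reads (M, mega) and the ATAC libraries 6.06 to 10.8 M, as recovered from the whole-read steps of the values. Ncor1, the target of the NCOR hairpin, was at 18.4, 20.2 and 18.7 RPKM (reads for each kilobase of exon and M reads) in the 3 shGFP libraries, 3.61, 4.2 and 4.3 in shNCOR and 18.9, 20.2 and 20.2 in shSMRT. The macrophage label held in all groups: 8 of 9 macrophage markers passed the filter on low values, and Mertk was at or near 0. Of these 8, 3 were higher and 3 lower in shNCOR, and 7 higher and 1 lower in shSMRT, at a limma adjusted p under 0.05. For this and the other marker counts, the shares of all genes tested were 17.6% higher and 20% lower in shNCOR. In shSMRT they were 24.4% higher and 31.4% lower. The summed level of the macrophage markers was 7062 to 7215 RPKM in shGFP, 8200 to 8485 in shNCOR and 9997 to 10538 in shSMRT, most of it Lyz2, with means of 5195 RPKM in shGFP and 6548 in shNCOR. Of the plasmacytoid dendritic cell markers Tcf4 alone passed the filter, and Siglech was at or near 0. Summed markers of lymphocytes, neutrophils, dendritic cells and fibroblasts or epithelium stayed at or under 1.62 RPKM in every library. Osteoclast markers moved with the groups: 6 of 7 passed the filter, 4 of them were higher and 1 lower in shNCOR, 6 were higher in shSMRT, their summed level was 25.7 to 27.4 RPKM in shGFP, 49.8 to 52.8 in shNCOR and 135 to 144 in shSMRT, and Calcr was at or near 0. The part of this shift in the results below was not tested.

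The response element is shown first because it is the sequence feature through which these genes are known to be switched on. A RefSeq promoter (250 bases before to 50 bases after the start site, GRCm38.p6) was found for 31 of the 43 members. The ISRE core searched was GAAA, any 2 bases, then GAAA, on either strand, with overlapping matches counted. It was present in 14 of the 31 members (45.2%), against 3.99% of the 27025 genes with a promoter in the table. The STAT site TTCNNNGAA, searched on both strands, was in 6 members (19.4%), against 9.55% of all genes, and 3 members held both. A match describes letters and is not a bound site. The match nearest the 5′ end of each promoter follows for the 14 members, in the direction of transcription, with the match in capitals and up to 10 flanking bases in lower case.
Ifit1: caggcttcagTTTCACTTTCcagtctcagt
Ifit3: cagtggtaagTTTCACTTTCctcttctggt
Ifit3b: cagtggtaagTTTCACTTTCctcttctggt
Rsad2: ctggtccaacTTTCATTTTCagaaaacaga
Isg15: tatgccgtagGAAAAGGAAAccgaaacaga
Oas1a: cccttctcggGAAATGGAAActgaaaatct
Oas1g: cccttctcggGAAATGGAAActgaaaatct
Oas3: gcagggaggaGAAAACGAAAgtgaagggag
Ifih1: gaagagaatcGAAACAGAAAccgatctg
Ddx58: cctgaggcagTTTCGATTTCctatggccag
Eif2ak2: agtccgccggGAAAACGAAAcagaagagaa
Ifi203: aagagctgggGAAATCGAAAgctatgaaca
Bst2: ggcattccagGAAAATGAAActgaaaggct
Calhm6: tgaaaaaaaaGAAAGTGAAAcccggaaggg

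The Ifit3 and Ifit3b windows are the same letters, as are those of Oas1a and Oas1g, which are pairs of near-identical neighbouring genes, so reads may have been shared within each pair and their values are uncertain to that extent. Isg15 held 3 overlapping matches, between 78 and 57 bases before the start site. In Ddx58, Eif2ak2 and Ifih1 the match lay after the start site.

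In cells with the NCOR hairpin the whole group was low. The 3 shNCOR libraries lay below the 3 shGFP libraries in 29 of the 29 members that reached 1 RPKM in at least 1 library of every group, whereas the same was true of 24.9% of the 10789 genes that passed the filter on low values. All 43 members, 5 of them under that filter, showed this order. Summed over the members, RNA stood at 799, 773 and 793 RPKM in the shGFP libraries, at 265, 258 and 263 in shNCOR and at 504, 506 and 539 in shSMRT. Much of these sums was Ifi27l2a, Bst2 and Lgals3bp, with shGFP means of 165, 129 and 81.3 RPKM. The median over the members was 8.54, 9.07 and 8.57 RPKM in shGFP, 1.87, 1.87 and 1.48 in shNCOR and 5.81, 6.25 and 6.51 in shSMRT. The groups did not overlap, and shSMRT lay between the other two. Fewer cells with a given RNA and less of it per cell cannot be told apart in such bulk samples.

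Of the 43 members, 38 passed the filter (at least 1 RPKM in at least 3 of the 9 libraries) and 5 did not (Ifit3, Ifit3b, Mx1, Mx2 and Ifi209). Oasl2 and Rsad2 passed through the shGFP libraries alone, so a lower value in the knockdowns was built into their test. Isg20 and Ifit1 reached 1 RPKM in some but not all shSMRT libraries and in no shNCOR library. They passed only with the shGFP libraries counted, so the same applied to them in part. The counts are therefore given first for the 29 members that reached 1 RPKM in at least 1 library of every group. In shNCOR against shGFP, 28 of these 29 were lower and 0 were higher at a limma adjusted p under 0.05, while 20% of all genes tested were called lower and 17.6% higher. Over the 38 tested members 37 were lower and 0 higher, and their median log2 fold change was -1.20, with 0.00 over all genes tested. Fold changes are on the log2(RPKM + 1) scale, which understates the change of low genes, so the level in RPKM is given beside them.

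**Figure D1:**
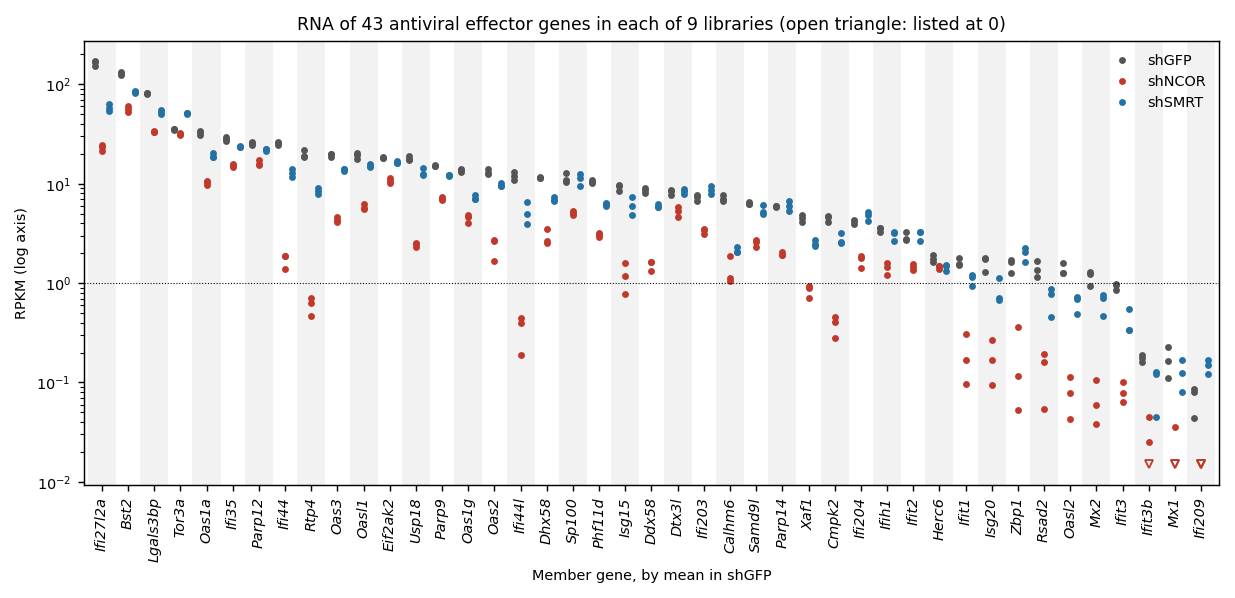
RNA of the 43 members in each library, in RPKM on a log axis, ordered by the shGFP mean. Each point is 1 library (grey shGFP, red shNCOR, blue shSMRT), open triangles are values listed at 0 and the dotted line is 1 RPKM. The shNCOR points lie below the shGFP points in all 43 genes.

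The SMRT hairpin gave a smaller and less even change. Of the 29 members with a library at 1 RPKM in every group, 20 were lower, 2 higher and 7 not called against shGFP, and 31.4% of all genes were called lower and 24.4% higher in this comparison. Over the 38 tested members 28 were lower, 2 higher (Tor3a and Ifi203) and 8 not called (Dtx3l, Herc6, Ifi204, Ifih1, Ifit2, Parp14, Sp100 and Zbp1), with a median log2 fold change of -0.45 against -0.02 over all genes. Without shGFP replicate 1 or shSMRT replicate 3, 1 member was called higher, as Ifi203 lost its call. Compared directly, 28 of those 29 members were higher in shSMRT than in shNCOR and 0 were lower. The shares of all genes called in this comparison were 22.8% higher and 29% lower. Over the 38 tested members 37 were higher and 0 lower, and the median difference was 0.85. Herc6 was the exception, at -0.0011 (adjusted p = 0.992, 95% interval -0.17 to 0.16). After quantile normalization the calls of Calhm6, Isg20, Oasl2 and Rsad2 in this comparison ended as well (adjusted p = 0.0559 to 0.144). Both comparisons with shGFP use the same control libraries, so their values are given side by side without a test of likeness.

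**Figure D2:**
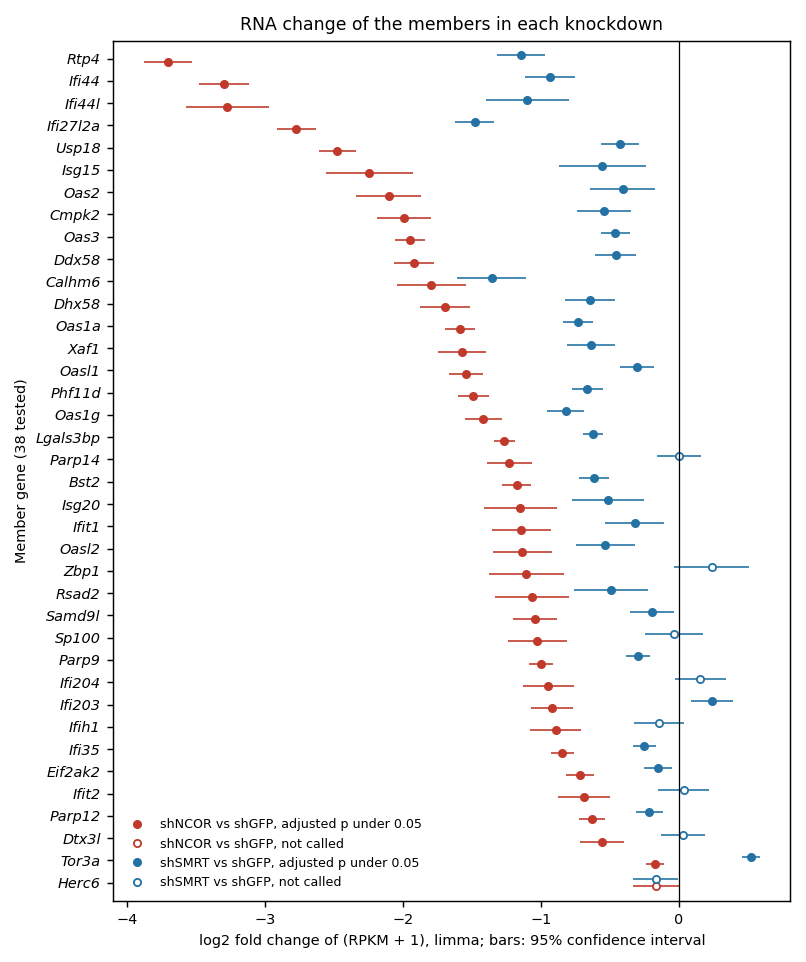
Log2 fold change of the 38 tested members against shGFP on the log2(RPKM + 1) scale, red for shNCOR and blue for shSMRT, with 95% confidence intervals from the limma fit. Filled points passed an adjusted p of 0.05. The red points run from -3.70 (Rtp4) to -0.17 (Herc6, not called), and the blue points from -1.48 (Ifi27l2a) to 0.52 (Tor3a).

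The IFIT proteins bind viral RNA through its 5′ end or AU-rich stretches. Ifit1 (chr19:34640889-34650009, mm10) stood at 1.57, 1.52 and 1.78 RPKM in shGFP, 0.17, 0.309 and 0.096 in shNCOR and 0.936, 1.16 and 1.21 in shSMRT. The mean in shNCOR was 11.8% of the control (log2 fold change -1.14 ± 0.10 (SE), limma adjusted p = 4.42e-06), for a gene that passed the filter only with the shGFP libraries counted. In shSMRT the change was -0.32 ± 0.10 (adjusted p = 0.0153), a call that ended without shGFP replicate 3 (adjusted p = 0.0623), without shSMRT replicate 1 (0.0694) or with a pseudocount of 0.1 (0.108). Ifit2, its neighbour on chromosome 19, was at 2.74, 2.81 and 3.3 RPKM in shGFP, 1.35, 1.56 and 1.44 in shNCOR and 2.64, 3.25 and 3.23 in shSMRT. Ifit2 thus fell in shNCOR (-0.69 ± 0.08, adjusted p = 7.98e-05), and the shSMRT libraries overlapped the controls (95% interval -0.15 to 0.22). Ifit3 was under the filter, at 0.857, 0.961 and 0.971 RPKM in shGFP, 0.102, 0.079 and 0.064 in shNCOR and 0.34, 0.544 and 0.336 in shSMRT. Its near copy Ifit3b rested on 14 to 15 reads per shGFP library and 0 to 4 per shNCOR library.

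Rsad2 (viperin) makes a nucleotide that ends viral RNA chains, and the neighbouring gene Cmpk2 encodes a nucleotide kinase that supplies its substrate. Rsad2 (chr12:26442743-26456452) was at 1.35, 1.68 and 1.14 RPKM in shGFP, 0.054, 0.162 and 0.195 in shNCOR and 0.455, 0.868 and 0.782 in shSMRT. All 3 groups were apart, with means of 9.87% of the control in shNCOR and 50.6% in shSMRT. Cmpk2 (chr12:26469215-26479837) followed the same order, at 4.62, 4.08 and 4.78 RPKM in shGFP, 0.282, 0.405 and 0.454 in shNCOR and 2.56, 2.59 and 3.18 in shSMRT. Its log2 fold changes were -1.99 ± 0.09 (adjusted p = 2.44e-08) in shNCOR and -0.54 ± 0.09 (adjusted p = 0.000359) in shSMRT. The exonuclease gene Isg20, which degrades single-stranded RNA, was at 10.9% of the control mean in shNCOR and 51.7% in shSMRT. Both changes were called (adjusted p = 2.06e-05 and 0.0035), but Isg20 passed the filter only with the shGFP libraries counted.

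ISG15 is a ubiquitin-like protein that is attached to other proteins, Usp18 encodes the protease that removes it and that also blocks signalling at the interferon receptor, and Herc6 is the ligase that attaches it in mice. Usp18 (chr6:121245906-121270917) was at 17.5, 17.7 and 19 RPKM in shGFP, 2.48, 2.51 and 2.31 in shNCOR and 12.4, 12.6 and 14.6 in shSMRT. The libraries of a group lay close together, and the log2 fold change was -2.47 ± 0.06 in shNCOR (adjusted p = 2.7e-10) and -0.43 ± 0.06 in shSMRT (adjusted p = 0.000145). Isg15 (chr4:156199424-156200818) was at 8.54, 9.82 and 9.39 RPKM in shGFP, 1.6, 0.782 and 1.18 in shNCOR and 4.87, 7.34 and 5.91 in shSMRT, again with no overlap between groups. Its log2 fold change was -2.24 ± 0.14 in shNCOR and -0.55 ± 0.14 in shSMRT (adjusted p = 3.87e-07 and 0.0064). Herc6 was not called in either knockdown and was at 1.91, 1.74 and 1.62 RPKM in shGFP, 1.5, 1.37 and 1.48 in shNCOR and 1.53, 1.5 and 1.32 in shSMRT. The knockdown libraries lay below the controls by a small margin that did not pass the test (-0.17 ± 0.07, adjusted p = 0.1, and -0.17 ± 0.07, adjusted p = 0.0745). When recovered reads were fitted with limma voom instead, Herc6 was called lower in both (adjusted p = 0.0363 in shNCOR and 0.0277 in shSMRT). It was also called lower in shSMRT after quantile normalization (-0.28, adjusted p = 0.00811) and without the filter (adjusted p = 0.0488).

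The dynamin-like GTPases Mx1 and Mx2, which block viruses in the nucleus and the cytoplasm respectively, were weakly expressed. Mx2 (chr16:97536083-97560899) was at 1.22, 0.936 and 1.28 RPKM in shGFP, 0.059, 0.038 and 0.106 in shNCOR and 0.462, 0.766 and 0.703 in shSMRT, or 88 to 127 recovered reads per control library against 4 to 10 in shNCOR. Mx1 had 12 to 27 reads in the control libraries, 0 to 4 in shNCOR and 10 to 20 in shSMRT. In shNCOR both genes lay below the controls in all 3 libraries, and in shSMRT Mx1 overlapped them.

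Of the 6 genes of the oligoadenylate synthetase family, all on chromosome 5, the 5 other than Oasl2, whose test had a lower value built in, were all lower in both knockdowns and higher in shSMRT than in shNCOR. Over all genes tested 20% were called lower in shNCOR, 31.4% lower in shSMRT and 22.8% higher in the direct comparison. The enzymes sense double-stranded RNA and make the oligoadenylates that activate RNase L. Oas2 (chr5:120730333-120749848) was at 12.9, 14.1 and 12.7 RPKM in shGFP, 1.67, 2.72 and 2.62 in shNCOR and 9.48, 10.1 and 9.49 in shSMRT. Oas3 (chr5:120753098-120777659) was at 20.1, 20.1 and 18.6 RPKM in shGFP, 4.34, 4.12 and 4.59 in shNCOR and 13.5, 14.2 and 14.2 in shSMRT. Their log2 fold changes in shNCOR were -2.10 ± 0.11 and -1.95 ± 0.05 (adjusted p = 6.56e-08 and 2.56e-10). Oas1a, the most abundant of the 6, was at 31, 34 and 33 RPKM in shGFP, 10.3, 9.68 and 10.6 in shNCOR and 18.7, 18.8 and 20.4 in shSMRT. In shSMRT, Oas1a and Oas1g changed by -0.73 ± 0.05 and -0.82 ± 0.06 (adjusted p = 4.48e-07 and 9.48e-07), and the means were 59.1% and 53.5% of the control. Oasl1, which lacks synthetase activity and restrains translation of the factor IRF7 in mice, was at 30.8% of the control mean in shNCOR and 79.8% in shSMRT. Oasl2 had 1.26, 1.58 and 1.28 RPKM in shGFP, 0.078, 0.043 and 0.113 in shNCOR and 0.492, 0.694 and 0.722 in shSMRT, so that its means, 5.69% and 46.4% of the control, were the lowest shares of the 6 genes in each knockdown.

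Among the sensors, the RIG-I-like receptors recognise viral RNA in the cytoplasm. Ddx58, which encodes RIG-I (chr4:40203777-40239825), was at 8.58, 9.07 and 8.07 RPKM in shGFP, 1.62, 1.65 and 1.33 in shNCOR and 5.81, 5.82 and 6.24 in shSMRT. Dhx58, which encodes the regulatory helicase LGP2, was at 11.5, 11.4 and 11.7 RPKM in shGFP, 2.63, 3.52 and 2.52 in shNCOR and 6.9, 6.78 and 7.38 in shSMRT. Both were lower in both knockdowns (log2 fold change -1.92 ± 0.07 and -1.70 ± 0.08 in shNCOR, -0.46 ± 0.07 and -0.64 ± 0.08 in shSMRT). Ifih1, the gene of the long-RNA sensor MDA5, fell in shNCOR (-0.89 ± 0.08, adjusted p = 8.71e-06) and was not called in shSMRT (-0.14 ± 0.08, adjusted p = 0.161), except after quantile normalization (adjusted p = 0.0226). Eif2ak2 encodes PKR, the kinase that halts translation on double-stranded RNA, and was at 58.8% of the control mean in shNCOR and 89.5% in shSMRT. The second of these differences (adjusted p = 0.0156) ended as a call without shGFP replicate 3 (0.0592) or shSMRT replicate 3 (0.0528). Zbp1, a sensor of left-handed nucleic acid that triggers necroptosis, was at 1.25, 1.61 and 1.71 RPKM in shGFP, 0.053, 0.117 and 0.36 in shNCOR and 2.04, 1.61 and 2.27 in shSMRT. Its shNCOR libraries were the lowest by a wide margin (-1.11 ± 0.12, adjusted p = 3.87e-05), and its shSMRT libraries overlapped the controls from above (0.24 ± 0.12, adjusted p = 0.13).

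Of the PYHIN genes on chromosome 1, whose proteins bind DNA, Ifi203 and Ifi204 were tested and Ifi209 was under the filter. Ifi203 (chr1:173920401-173942492) was at 6.78, 7.65 and 7.28 RPKM in shGFP, 3.15, 3.48 and 3.45 in shNCOR and 7.96, 8.64 and 9.59 in shSMRT. It fell in shNCOR (-0.92 ± 0.07, adjusted p = 1.66e-06) and rose in shSMRT (0.24 ± 0.07, adjusted p = 0.0125), the latter not without shGFP replicate 1 (0.0535) or shSMRT replicate 3 (0.0561). Ifi204 fell in shNCOR (-0.95 ± 0.08, adjusted p = 6.62e-06) and its shSMRT libraries, at 4.81, 4.26 and 5.25 RPKM, overlapped the controls at 4.33, 4.24 and 3.97. Ifi209 was listed at 0 in all 3 shNCOR libraries, had 6 to 13 reads per control library and 19 to 25 per shSMRT library. In the fit without the filter it was called lower in shNCOR (adjusted p = 0.0086) and higher in shSMRT (adjusted p = 0.0046). Tor3a, an ATPase of the torsin family outside the PYHIN group, was the other of the 38 tested members that rose in shSMRT, at 35.9, 35.1 and 35.6 RPKM in shGFP, 32.1, 31.4 and 30.6 in shNCOR and 51.5, 50.6 and 52.1 in shSMRT. The 3 groups were apart, with log2 fold changes of -0.17 ± 0.03 (adjusted p = 0.000594) and 0.52 ± 0.03 (adjusted p = 8.94e-08).

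Parp9 and Dtx3l form a ubiquitin ligase and lie head to head on chromosome 16, where their annotated ends overlap. Because reads were counted on both strands, those in the overlap cannot be assigned to either. Parp9 was at 15, 15.1 and 15.3 RPKM in shGFP, 6.84, 6.97 and 7.38 in shNCOR and 12.2, 12.1 and 12.1 in shSMRT, and it fell in both knockdowns (-1.0015 ± 0.04 and -0.30 ± 0.04, adjusted p = 7.16e-09 and 6.7e-05). Dtx3l fell in shNCOR (-0.56 ± 0.07, adjusted p = 0.000125) and overlapped the controls in shSMRT (95% interval -0.13 to 0.19). Parp14, an ADP-ribosyltransferase of macrophages, was at 6.0, 5.84 and 6.0 RPKM in shGFP, 2.08, 1.91 and 1.91 in shNCOR and 5.28, 5.91 and 6.74 in shSMRT. Its mean in shNCOR was 33% of the control, and the shSMRT libraries lay on both sides of the control values (95% interval -0.16 to 0.16). Parp12, another ADP-ribosyltransferase, fell to 63.3% of the control mean in shNCOR and 85.6% in shSMRT (adjusted p = 7.3e-07 and 0.0014).

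The remaining effectors held both the most abundant members and the largest falls on the log2(RPKM + 1) scale. Ifi27l2a (chr12:103442166-103443680), which encodes a small hydrophobic membrane protein, was at 172, 154 and 167 RPKM in shGFP, 23.7, 21.4 and 24.6 in shNCOR and 58, 54.1 and 63.4 in shSMRT. Bst2, the gene of tetherin that holds budding virions at the cell surface, was at 132, 126 and 128 RPKM in shGFP, 60.9, 52.2 and 56.1 in shNCOR and 83, 81 and 86.7 in shSMRT. Lgals3bp, which encodes a secreted glycoprotein, was at 81.5, 82.4 and 80.1 RPKM in shGFP, 33.7, 32.8 and 33.3 in shNCOR and 52.9, 50.0 and 54.6 in shSMRT. These 3 genes had the highest levels per length in shGFP, and for each of them the groups were ordered shNCOR, shSMRT, shGFP without overlap. The log2 fold changes in shNCOR were -2.77 ± 0.06, -1.18 ± 0.05 and -1.27 ± 0.03 (adjusted p = 1.65e-10, 1.31e-08 and 3.7e-10).

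Rtp4 (chr16:23609919-23614222), a receptor transporter protein that also binds viral RNA, had the largest fall of the 38 tested members in shNCOR on the log2(RPKM + 1) scale, while Ifi44l had the lowest share of the control mean. Rtp4 was at 21.9, 18.5 and 19.2 RPKM in shGFP, 0.636, 0.706 and 0.468 in shNCOR and 8.42, 7.85 and 9.04 in shSMRT. The mean in shNCOR was 3.04% of the control and that in shSMRT 42.5% (log2 fold change -3.70 ± 0.08, adjusted p = 9.28e-11, and -1.14 ± 0.08, adjusted p = 5.33e-07). The neighbouring genes Ifi44 and Ifi44l on chromosome 3 came next on that scale. Ifi44 (chr3:151730923-151749910) was at 26.4, 24.7 and 25.5 RPKM in shGFP, 1.89, 1.86 and 1.38 in shNCOR and 11.7, 12.8 and 14.2 in shSMRT. Ifi44l was at 11.9, 10.8 and 13.3 RPKM in shGFP, 0.191, 0.442 and 0.396 in shNCOR and 4.91, 3.96 and 6.51 in shSMRT. Their means in shNCOR were 6.7% and 2.87% of the control, and in shSMRT 50.5% and 42.8%.

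Calhm6 encodes a channel protein of activated macrophages, and its shSMRT mean, 30.4% of the control, was the lowest such share among the 38 tested members. It was at 7.63, 6.68 and 6.95 RPKM in shGFP, 1.87, 1.13 and 1.06 in shNCOR and 2.33, 2.06 and 2.07 in shSMRT. The direct difference was 0.44 ± 0.11 (adjusted p = 0.0075, and 0.0559 after quantile normalization). Xaf1, which encodes a partner of the apoptosis inhibitor XIAP, and Phf11d were at 18.8% and 29.4% of the control mean in shNCOR and at 56.2% and 59.6% in shSMRT. Ifi35, Samd9l, which restrains poxviruses, and Sp100, a component of nuclear bodies, fell in shNCOR (-0.84 ± 0.04, -1.05 ± 0.07 and -1.03 ± 0.10). In shSMRT, Ifi35 fell by a smaller amount (-0.25 ± 0.04, adjusted p = 0.000171) and Sp100 was not called (-0.03 ± 0.10, adjusted p = 0.779). The shSMRT call of Samd9l (-0.19 ± 0.07, adjusted p = 0.0406) ended in 7 alternatives, among them the removal of any shGFP library, of shSMRT replicate 1 or of shSMRT replicate 2 (adjusted p = 0.0627 to 0.153).

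Members with and without the ISRE core were compared as a description. In shNCOR the median log2 fold change was -1.30 over the 12 tested members with a match (range -2.24 to -0.72) and -1.14 over the 16 with a promoter and no match (range -3.30 to -0.17). In shSMRT the medians were -0.48 and -0.41. Members that passed the filter only with shGFP counted are in both sets, Rsad2 and Ifit1 with a match and Oasl2 and Isg20 without. A lower value in the knockdowns was thus partly built into these medians. The ranges overlapped in shNCOR, and neither Ifi44 nor Ifi44l held a match.

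Other genes of the interferon pathway, from production of interferon to signalling and restraint, changed less uniformly. Of the 41 listed, 36 passed the filter. Among these, 19 were lower, 4 higher and 13 not called in shNCOR, and 16 lower, 13 higher and 7 not called in shSMRT. Over all genes tested, 20% were lower and 17.6% higher in shNCOR, and 31.4% lower and 24.4% higher in shSMRT. The interferon transcripts on this list were at or near 0: Ifnb1 was at 0, 0.033 and 0 RPKM in shGFP, 0, 0 and 0 in shNCOR and 0, 0.061 and 0 in shSMRT, and Ifna2, Ifna4 and Ifng were listed at 0 in all 9 libraries. Other interferon genes were not examined. The receptor gene Ifnar1 rose in both knockdowns (0.37 ± 0.03 and 0.39 ± 0.03, adjusted p = 9.55e-06 and 4.08e-06). Ifnar2 was not called in shNCOR (0.00 ± 0.03) and fell slightly in shSMRT (-0.13 ± 0.03, adjusted p = 0.0029), a call that ended after quantile normalization (adjusted p = 0.12).

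Of the 7 interferon regulatory factor (Irf) genes on the pathway list, 5 were lower, 0 higher and 2 not called in shNCOR, and 3 were lower, 3 higher and 1 not called in shSMRT. The shares of all genes tested were 20% lower and 17.6% higher in shNCOR, and 31.4% lower and 24.4% higher in shSMRT. Irf7, which amplifies the interferon response, was at 20.8, 19.6 and 19.1 RPKM in shGFP, 2.02, 2.65 and 1.76 in shNCOR and 12, 12.1 and 13.3 in shSMRT. Irf9, the DNA-binding partner of STAT2, was at 17.7, 18.9 and 18.8 RPKM in shGFP, 6.58, 7.27 and 7.68 in shNCOR and 14.7, 16.4 and 17.8 in shSMRT. Both genes thus stood lowest in shNCOR, with log2 fold changes of -2.74 ± 0.09 and -1.25 ± 0.07 (adjusted p = 1.62e-09 and 1.12e-07). In shSMRT the changes were -0.63 ± 0.09 and -0.17 ± 0.07 (adjusted p = 0.000107 and 0.0482). The Irf9 call in shSMRT ended in 8 alternatives, among them a pseudocount of 0.1 (adjusted p = 0.0531) and the fit without shSMRT replicate 1 (adjusted p = 0.192). Stat2 moved in opposite directions, down in shNCOR (-0.18 ± 0.05, adjusted p = 0.0093) and up in shSMRT (0.16 ± 0.05, adjusted p = 0.0096). The signalling inhibitor Socs3 and the adaptor gene Tmem173, which encodes STING, were both lower in shNCOR (-0.88 ± 0.07 and -0.86 ± 0.07) and in shSMRT (-0.33 ± 0.07 and -0.42 ± 0.07).

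Accessibility was lower at many member promoters in the NCOR knockdown, and no member peak was called higher. ATAC-seq counts insertions of a transposase into open chromatin, and each value is the number of reads in a peak for every 10 M reads of the library. Of the 102 peaks, 98 passed the filter (3 or more libraries with a value of 10 or above), and their fold changes are on the log2(value + 5) scale. In shNCOR against shGFP, 20 were lower, in 16 genes, and 0 higher, with 4% of all 51469 peaks tested called lower and 4.58% higher. Promoter peaks, the nearest peak within 1 kb of the start site, were available for 35 members: 13 of these were lower and 0 higher, against 1.44% and 3.06% of all 10509 promoter peaks tested. The count of 20 dropped to 13 without shGFP replicate 2 and likewise without shGFP replicate 3. The median log2 fold change over the 35 promoter peaks was -0.47, with 0.08 over all promoter peaks.

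**Figure D3:**
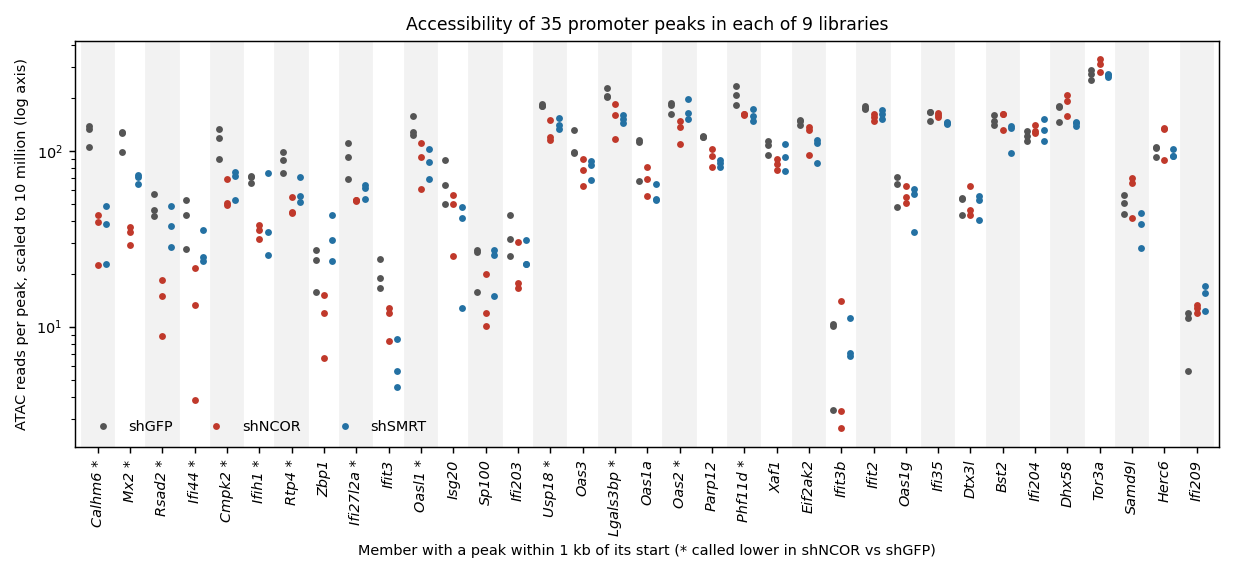
ATAC values of the 35 promoter peaks in each library, in reads per peak scaled to 10 M reads, on a log axis, ordered by the change in shNCOR. Each point is 1 library (grey shGFP, red shNCOR, blue shSMRT), and an asterisk marks the 13 peaks called lower in shNCOR. The peaks of Calhm6 and Mx2, at the left, show the widest gap between control and shNCOR libraries.

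The Calhm6 promoter peak (chr10:34127541-34128338, mm10) changed most among the promoters. Its values were 105, 132 and 138 in shGFP, 22.4, 39.6 and 43.1 in shNCOR and 48.8, 22.7 and 38.2 in shSMRT. Both knockdowns lay below the controls and overlapped each other, with log2 fold changes of -1.73 ± 0.23 (adjusted p = 3.41e-07) and -1.69 ± 0.23 (adjusted p = 3.2e-07). A second pattern was seen at the Mx2 promoter peak (chr16:97535816-97536389), at 127, 126 and 98.7 in shGFP, 29, 34.7 and 36.8 in shNCOR and 73.2, 64.7 and 70.7 in shSMRT. There the 3 groups were apart, the change being -1.66 ± 0.19 in shNCOR (adjusted p = 4.86e-09) and -0.71 ± 0.19 in shSMRT (adjusted p = 0.0053, and 0.0531 without shGFP replicate 1). Another peak, 876 bases before the Mx2 start site, was lower in both knockdowns (-0.9988 ± 0.17 and -0.87 ± 0.17).

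At Rsad2 and Ifi44 the promoter fell in shNCOR and was not called in shSMRT. The Rsad2 promoter peak (chr12:26456093-26456653) was at 57, 45.9 and 42.4 in shGFP, 18.5, 14.8 and 8.88 in shNCOR and 37.6, 48.8 and 28.3 in shSMRT. The shNCOR libraries lay below all others (-1.51 ± 0.29, adjusted p = 0.000271), and shSMRT exceeded shNCOR (1.19 ± 0.29, adjusted p = 0.0019). An intergenic peak about 17.0 kb downstream of the Rsad2 start site (chr12:26439289-26439696) had 43.6, 41.2 and 37.8 in shGFP, 0, 1.65 and 12.7 in shNCOR and 47, 27.2 and 17 in shSMRT. This was the largest fall of any member peak in shNCOR (-2.45 ± 0.38, adjusted p = 8.84e-06). The Ifi44 promoter peak had 52.5, 43.1 and 27.7 in shGFP, 13.2, 21.5 and 3.81 in shNCOR and 23.5, 25 and 35.4 in shSMRT, and it fell in shNCOR (-1.47 ± 0.34, adjusted p = 0.0027). Cmpk2, next to Rsad2, had a promoter peak annotated as exonic that fell in both knockdowns (-0.95 ± 0.18 and -0.72 ± 0.18, adjusted p = 0.000316 and 0.0038).

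Usp18 had a promoter peak and an intronic peak that both fell in shNCOR. The promoter peak fell in shNCOR (-0.49 ± 0.12, adjusted p = 0.0059), and its shSMRT change (-0.34 ± 0.12, adjusted p = 0.0431) ended as a call under either other scaling and without any 1 of 5 libraries. The intronic peak 5605 bases downstream (chr6:121251200-121251822) was at 93.9, 80.6 and 76.5 in shGFP, 38.3, 42.9 and 48.2 in shNCOR and 77.9, 74.9 and 69.3 in shSMRT. It fell in shNCOR (-0.88 ± 0.19, adjusted p = 0.00096) and was higher in shSMRT than in shNCOR (0.72 ± 0.19, adjusted p = 0.0033). Isg20 had a peak 934 bases before its start site that fell in shNCOR (-1.31 ± 0.25, adjusted p = 0.000241). This Isg20 peak was also called lower in shSMRT, a call that ended without shGFP replicate 1 (adjusted p = 0.0926) or shSMRT replicate 3 (0.0502). Rtp4 had a promoter peak at 88.3, 75 and 98.7 in shGFP and 44.9, 54.5 and 44.4 in shNCOR (-0.80 ± 0.19, adjusted p = 0.0042, and 0.0503 without shGFP replicate 3). The promoter peaks of Herc6, Tor3a and Ifi204 were not called in shNCOR (0.21 ± 0.15, 0.18 ± 0.10 and 0.11 ± 0.13).

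The promoters that follow are those of the members with a tested promoter peak and a RefSeq promoter whose RNA had the largest (Ifi44, Cmpk2, Oas3 and Calhm6) and the smallest (Dtx3l and Herc6) falls in shNCOR on the log2(RPKM + 1) scale. By share of the control mean, Rsad2 (9.87%) and Isg20 (10.9%) were below Oas3 (22.2%) and Calhm6 (19.1%). They are RefSeq sequences of GRCm38.p6, 5′ to 3′ in the direction of transcription, with matches to the ISRE core in capitals. Oas3 and Calhm6 hold 1 match each and the other 4 hold none.
Ifi44 (chr3:151749861-151750160, minus strand): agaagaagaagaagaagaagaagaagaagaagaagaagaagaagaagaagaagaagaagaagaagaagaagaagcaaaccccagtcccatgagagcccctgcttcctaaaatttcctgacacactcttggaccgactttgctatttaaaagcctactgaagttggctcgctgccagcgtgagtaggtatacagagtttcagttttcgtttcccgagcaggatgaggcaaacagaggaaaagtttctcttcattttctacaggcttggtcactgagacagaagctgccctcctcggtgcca
Cmpk2 (chr12:26468965-26469264, plus strand): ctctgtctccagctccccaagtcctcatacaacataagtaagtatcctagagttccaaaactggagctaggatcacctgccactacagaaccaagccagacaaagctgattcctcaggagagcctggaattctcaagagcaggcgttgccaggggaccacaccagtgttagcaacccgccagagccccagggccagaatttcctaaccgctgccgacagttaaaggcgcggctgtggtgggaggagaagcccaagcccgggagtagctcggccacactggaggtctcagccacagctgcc
Oas3 (chr5:120777610-120777909, minus strand): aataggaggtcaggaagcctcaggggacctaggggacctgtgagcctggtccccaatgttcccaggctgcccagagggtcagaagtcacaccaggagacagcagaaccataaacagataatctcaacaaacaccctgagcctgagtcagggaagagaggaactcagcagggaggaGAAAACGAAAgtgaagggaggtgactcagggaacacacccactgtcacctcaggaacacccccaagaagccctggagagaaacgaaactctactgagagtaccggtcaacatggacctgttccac
Calhm6 (chr10:34127923-34128222, minus strand): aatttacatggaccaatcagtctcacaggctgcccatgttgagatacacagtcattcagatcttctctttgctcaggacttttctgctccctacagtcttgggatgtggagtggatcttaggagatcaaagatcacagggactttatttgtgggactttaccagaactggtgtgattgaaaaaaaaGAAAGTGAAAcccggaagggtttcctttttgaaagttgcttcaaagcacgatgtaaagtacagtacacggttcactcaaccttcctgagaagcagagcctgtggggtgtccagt
Dtx3l (chr16:35938978-35939277, minus strand): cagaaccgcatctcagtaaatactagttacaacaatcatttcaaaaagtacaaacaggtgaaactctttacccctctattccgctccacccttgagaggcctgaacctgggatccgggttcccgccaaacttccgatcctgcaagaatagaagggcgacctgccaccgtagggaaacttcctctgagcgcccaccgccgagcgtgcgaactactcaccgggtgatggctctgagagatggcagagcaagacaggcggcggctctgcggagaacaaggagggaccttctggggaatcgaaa
Herc6 (chr6:57580742-57581041, plus strand): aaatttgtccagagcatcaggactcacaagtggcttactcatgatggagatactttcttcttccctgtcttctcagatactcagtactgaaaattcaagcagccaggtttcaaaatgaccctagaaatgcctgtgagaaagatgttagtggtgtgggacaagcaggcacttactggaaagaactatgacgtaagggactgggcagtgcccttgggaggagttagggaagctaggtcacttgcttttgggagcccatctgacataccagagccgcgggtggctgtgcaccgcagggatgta

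In shSMRT lower promoter peaks were common in the whole table as well as among the members. Against shGFP, 15 of the 35 promoter peaks were lower and 0 higher, where 22.9% of all promoter peaks were called lower and 1.49% higher. The median log2 fold change over the 35 promoter peaks was -0.34, with -0.20 over all promoter peaks. Over all 98 tested member peaks 21 were lower and 4 higher, against 10.9% and 6.81% of all peaks. With median-of-ratios scaling of the libraries in place of the deposited scale the split was 12 lower and 5 higher, and the count of 21 lower also fell to 9, 12 and 11 without shGFP replicate 1, 2 or 3. The 4 higher peaks, 2 of them still called without shGFP replicate 2, all lay away from promoters. One of them, annotated as intronic and 9830 bases before the Mx1 start site (chr16:97472567-97472906), had 2.24, 3.75 and 10.1 in shGFP, 3.96, 9.9 and 3.81 in shNCOR and 47.9, 43.1 and 31.1 in shSMRT. This gain (2.19 ± 0.41, adjusted p = 9.96e-05) was the largest of any member peak, while Mx1 RNA stayed at 0.081 to 0.17 RPKM in shSMRT. The peak passed the filter only with the shSMRT libraries counted, so a higher value there was built into its test.

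The other 3 higher peaks lay 14489 bases downstream of the Calhm6 start site, 14720 bases downstream of that of Ifi209 and 15522 bases downstream of that of Usp18. Their log2 fold changes were 1.08 ± 0.30, 1.32 ± 0.36 and 0.70 ± 0.21 (adjusted p = 0.0083, 0.0081 and 0.0142), and each call ended without 1 or more single libraries (adjusted p = 0.0507 to 0.117).

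**Figure D4:**
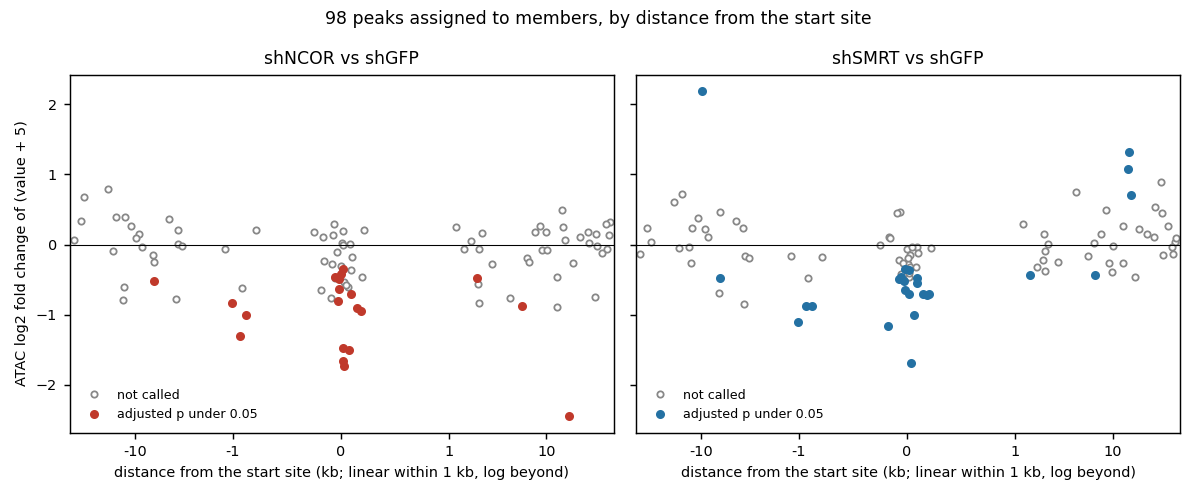
ATAC log2 fold change of the 98 tested member peaks on the log2(value + 5) scale against the distance from the start site, in kb (linear within 1 kb, log beyond), for shNCOR (left) and shSMRT (right) against shGFP. Filled points passed an adjusted p of 0.05. In shNCOR all 20 called peaks are below 0, and in shSMRT the 4 called peaks above 0 lie beyond 1 kb.

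Between the knockdowns, 14 member peaks were higher in shSMRT than in shNCOR and 4 lower, whereas 6.93% of all peaks were called higher and 17.5% lower. Among promoter peaks 5 were higher (Ifi44, Mx2, Oas2, Rsad2 and Zbp1) and 1 lower (Dhx58), against 1.6% and 44% of all promoter peaks. Of these, the calls of Mx2 and Rsad2 held in each alternative run. Median-of-ratios scaling moved the median of all peaks in this comparison from -0.12 to 0.00 and the member split to 14 higher and 0 lower. The count of higher peaks was 9 without shSMRT replicate 3, and that of lower peaks was 2 without shNCOR replicate 2.

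RNA and promoter accessibility were then set side by side in the 31 members tested in both. In shNCOR 12 members were lower in both assays, or 11 of 30 without Rsad2, whose RNA test had a lower value built in, against 0.882% of the 8844 genes tested in both. They were Calhm6, Cmpk2, Ifi27l2a, Ifi44, Ifih1, Lgals3bp, Oas2, Oasl1, Phf11d, Rsad2, Rtp4 and Usp18. The promoter calls of Calhm6, Cmpk2, Ifi44, Rsad2 and Usp18 held in each alternative run, and those of the other 7 ended when 1 or another library was left out. In shSMRT 12 were also lower in both, against 10.1% of those genes. They include Isg20, which passed the RNA filter only with the shGFP libraries counted. The shSMRT promoter calls of Calhm6 and Cmpk2 held in each alternative run, and those of the other 10 (Eif2ak2, Ifi27l2a, Isg20, Lgals3bp, Oas1a, Oasl1, Parp12, Phf11d, Rtp4 and Usp18) ended when 1 or another library was left out. Median-of-ratios scaling alone ended those of Ifi27l2a, Parp12, Phf11d, Rtp4 and Usp18 (adjusted p = 0.0531 to 0.147). Quantile normalization ended the same calls and those of Eif2ak2 and Lgals3bp (adjusted p = 0.0514 to 0.246). Across the 31 members, which share libraries and controls within a contrast, Spearman's rho between the 2 log2 fold changes was 0.51 in shNCOR and 0.57 in shSMRT, as a description. Members such as Dhx58, with RNA at 25.1% of the control and a promoter peak at 158, 191 and 207 in shNCOR and 145, 178 and 179.8 in shGFP, had lower RNA with overlapping promoter values.

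**Figure D5:**
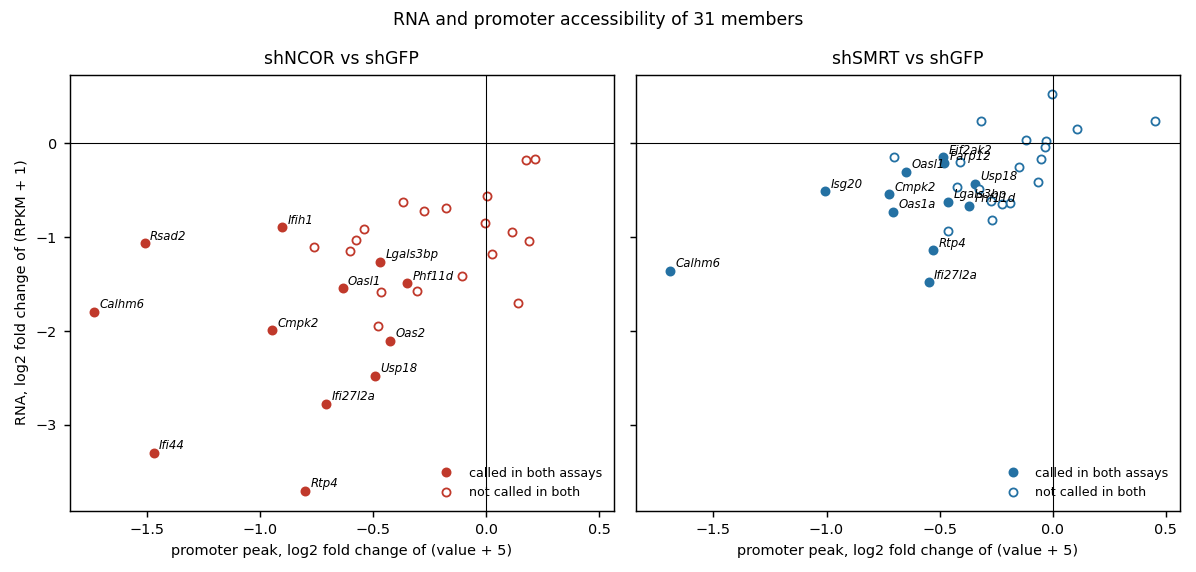
Log2 fold change of RNA (vertical, log2(RPKM + 1)) against that of the promoter peak (horizontal, log2(value + 5)) for 31 members, for shNCOR (left) and shSMRT (right) against shGFP. Filled, named points were called in both assays, 12 in each panel, and open points were not. All filled points lie below 0 on both axes.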

How the data were processed

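RNA-seq and ATAC-seq tables of 9 libraries each were used. Groups were taken from the sample titles. They were followed for ATAC too, although its protocol in the labels speaks of wild-type cells. For RNA, the deposited values are RPKM that HOMER counted over mm10 exons on both strands with 1 transcript per gene, per the file headers. The other deposited values, for ATAC, are read numbers per peak on a scale of 10 M reads per library (M, mega), annotated by HOMER on mm10, per the file headers, with decimal commas read as points and 1 peak without a number left out. The submitters' processing notes name, besides HOMER, the tools DESeq2, MACS2, HISAT2 and Bowtie2, with mm10 and mm9 as builds. The notes do not tie a tool to the peak calls. At least 99.94% of the low values tested were whole numbers of reads within a tolerance of 0.1 read, which gave the depths.

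Per assay, 1 limma fit took the 9 libraries with a mean-variance trend (limma 3.58.1, R 4.3.3) on log2(RPKM + 1) for 10789 genes and on log2(value + 5) for 51469 peaks, with Benjamini-Hochberg adjustment over all of them at 0.05. The scripts were tested on simulated data. Alternatives were other pseudocounts, filters and scalings, a replicate block, fits on 6 libraries, each library left out, a 10 kb window for peaks, and limma voom on the recovered reads, which for ATAC was chosen after seeing the data. Promoters were RefSeq sequences. All members could be named, and of other pathway genes up to 6 called per direction by size plus Ifnb1, Ifnar1, Ifnar2, Stat2, Irf7 and Irf9, with Ifna2, Ifna4 and Ifng added after their values were seen. The members and lists were chosen with earlier results of these data known. The transcript targeted by the SMRT hairpin is not reported here, nor is 1 pathway gene beyond its place in the counts. Figures were drawn with matplotlib 3.10.9.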

Additional observations from a re-analysis of the deposited data

How the results depend on the processing

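With RNA, no call of a member in shNCOR against shGFP was lost under any alternative run, and leaving out single libraries gave 35 to 37 lower members, since up to 2 of them then missed the filter. In shSMRT, leave-one-out counts were 23 to 27 lower and 1 to 2 higher. The member median of the log2 fold change was -1.71, -0.50 and 1.34 (shNCOR and shSMRT against shGFP, shSMRT against shNCOR) with a pseudocount of 0.1, and -1.73, -0.51 and 1.35 with limma voom on recovered reads. It was -1.14 without a filter in shNCOR and 0.78 after quantile normalization in shSMRT against shNCOR. Some members near 0 changed sign in shSMRT against shGFP. Dtx3l was at -0.0038 and Ifit2 at -0.0588 after quantile normalization. Parp14 was at -0.0008 with a pseudocount of 0.1, -0.0584 after quantile normalization and -0.0057 with voom. With 1 library left out, Dtx3l ranged from -0.0164 to 0.0652, Ifit2 from -0.0061 to 0.1055, Parp14 from -0.0777 to 0.0737 and Sp100 from -0.1181 to 0.0716. Herc6 in shSMRT against shNCOR was at 0.0138 with median-of-ratios scaling, 0.0004 with voom, and -0.0256 to 0.0384 with 1 library left out. With 1 library left out, Ifnar2 in shNCOR ranged from -0.0138 to 0.0255 and Ifnar1 in shSMRT against shNCOR from -0.0002 to 0.0261.

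With ATAC, member peaks lower in shNCOR numbered 13 to 20 over the left-out libraries. In shSMRT against shGFP the lower count was 12 with median-of-ratios scaling, 12 after quantile normalization and 9 to 15 over left-out libraries, and the higher count was 1 within 10 kb and 2 to 4 over left-out libraries. In shSMRT against shNCOR the higher count was 9 within 10 kb and 9 to 14 over left-out libraries, and the lower count was 0 with median-of-ratios scaling, 1 after quantile normalization, 2 in the fit on 6 libraries and 2 to 6 over left-out libraries.

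Same-numbered libraries showed no strong shared deviation (correlations from -0.06 to 0.105). Such correlations cannot exclude that libraries with the same number were handled together. A replicate block gave 37 lower members in shNCOR, 28 lower and 2 higher in shSMRT, and 37 higher in shSMRT against shNCOR, and for peaks 19 lower in shNCOR, 21 lower and 4 higher in shSMRT, and 14 higher and 4 lower between the knockdowns. An edgeR test of the ATAC reads, planned as an alternative, was not run. ATAC depth limits weak peaks, and RNA depth limits Mx1, Ifit3b and Ifi209.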
